A study of Homo sapiens with 6 samples.

Results

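The genes described here are CXCL12, CXCL16 and IL32, the receptors of the first pair (CXCR4, ACKR3 and CXCR6), the main CC chemokines CCL2, CCL5 and CCL20, and CXCL14, which are 10 of the 60748 genes in the deposited table. They were found by their symbols. CXCL12, CXCL16 and IL32 were selected on their read counts, chosen by the fall of these counts in the comparison described here, so their values, and where they fell in the fit over all genes, are given as a description that supports nothing, and the other 7 genes were added as their receptors or as chemokines of the same kind. RNA was sequenced in 6 libraries of LX-2, an established line of human hepatic stellate cells, to find which transcripts differ once fibroblast activation protein α (FAPα), a membrane serine protease, is overexpressed. LX-2FAP cells (n = 3) carried FAPα stably through a lentivirus, and LX-2Vector cells (n = 3) were the empty-vector controls. The study's methods name a vector with a ubiquitin promoter, EGFP and puromycin resistance, so that these elements were common to both groups. They also state that stable clones were selected with puromycin, without saying how many clones each group held. Differences between the selected cells cannot be told apart from FAPα here and were not tested. All 6 libraries came from 1 cell line grown in serum for 24 h. No label says whether the 3 libraries of a group came from separate cultures, so p-values measure the spread between these samples, which may be technical. Triplets of values are given in the order of replicates 1 to 3.

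Chemokines are small secreted proteins that bind G protein-coupled receptors and direct the migration of leukocytes and other cells along a gradient. CXCL12 signals through CXCR4 and is also taken up by the atypical receptor ACKR3, whereas CXCL16 is made as a membrane protein, is shed by proteases and binds CXCR6 on T cells and natural killer T cells of the liver. IL32 is an inflammatory cytokine outside the chemokine family that is made in several spliced forms and has no counterpart in rodents. Stellate cells are a source of chemokines in the injured liver, where CCL2 draws in monocytes and CCL5 draws in T cells and monocytes.

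The libraries held 17355700 to 26352060 counts. FAP was examined first, as a check of the labels, and its counts were 49, 42 and 55 in the controls against 14864, 15160 and 14805 in the LX-2FAP libraries. Of 8 stellate cell markers, 7 passed the filter on low counts. The 8 summed to 1889 to 2003 normalized counts-per-million (CPM) in the controls against 1936 to 2064 CPM with FAPα. Most of this sum was VIM, whose mean rose from 1545 to 1695 CPM, so the sum does not show that the other markers were level. COL1A1, the next in level, fell from a mean of 306 to 232 CPM. COL1A1, COL3A1 and PDGFRB were called lower (log2 fold changes -0.40, -0.69 and -0.38) and VIM higher (0.13) in LX-2FAP. Over all tested genes, 2.73% were called lower and 2.57% higher. Another 3 defining markers were sparse. DES had 4 counts over all 6 libraries, COL1A2 had 76 and 67 counts in LX-2Vector and LX-2FAP, and ACTA2 had 247 and 186 counts. The 8 leukocyte markers summed to 13.9 to 18.3 CPM in the controls and 15.4 to 19.0 CPM with FAPα, and none of the 5 tested was called (edgeR quasi-likelihood test, adjusted p of 0.05 or over). Endothelial markers (4 genes) summed to 9.40 to 10.6 CPM in the controls and 7.12 to 8.88 CPM with FAPα. VWF was called lower (log2 fold change -1.06, mean 2.46 CPM in the controls and 1.17 CPM with FAPα). PECAM1 (log2 fold change 0.05) and KDR (-0.20) were not called, and CDH5 was too low to be tested. The part of endothelial markers in the values below was not tested. In bulk RNA, fewer cells with a transcript and less of it per cell cannot be told apart.

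Start regions of the members with RefSeq entries were read first (GRCh38.p14, 250 bases before each start to 50 after). Of the 10 genes, 6 had entries, with 10 starts between them, and ACKR3, CXCL16, CCL2 and CCL5 had none. CXCL12 and IL32 are shown because both were lower in LX-2FAP and their start regions differ in kind. The CXCL12 stretch is the 250 bases before the start, chr10:44385098-44385347, minus strand, in which capitals mark each CG pair. It lies between exons of CXCL12 in GENCODE 29. The IL32 stretch runs from 250 to 89 bases before the first RefSeq start, chr16:3065153-3065314, plus strand, and its capitals mark overlapping NF-kB motif matches on the 2 strands. In GENCODE 29 another IL32 transcript starts further upstream, at base 3065297, so the capitals lie in its first exon.
CXCL12: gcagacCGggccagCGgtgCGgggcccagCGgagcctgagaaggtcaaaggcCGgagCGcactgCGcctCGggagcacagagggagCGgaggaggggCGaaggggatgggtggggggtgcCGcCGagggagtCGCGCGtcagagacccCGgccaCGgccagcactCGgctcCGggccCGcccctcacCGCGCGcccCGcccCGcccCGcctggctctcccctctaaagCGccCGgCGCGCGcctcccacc
IL32: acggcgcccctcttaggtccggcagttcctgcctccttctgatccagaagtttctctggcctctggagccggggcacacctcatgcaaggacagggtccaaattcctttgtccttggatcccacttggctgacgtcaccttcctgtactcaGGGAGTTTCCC
The CXCL12 stretch held 31 CG pairs where the median over 35116 RefSeq promoters was 11, and 89.1% of promoters had fewer. Its G and C content was 78% against a median of 58%. None of the 4 motifs searched on both strands (NF-kB, ACGTG and GCGTG of the hypoxia response, and the EGR1 core GTGGGCG) matched in the 300 bases around the CXCL12 start. Matches to NF-kB were present in 11.3% of all promoters, ACGTG in 21.4%, GCGTG in 36.5% and GTGGGCG in 9.52%.

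The NF-kB matches of IL32 lay 99 to 90 and 98 to 89 bases before the start, on opposite strands of nearly the same letters. CCL20 was the other gene with such a match, 79 to 70 bases before its start on the minus strand. GCGTG was found once each at the first starts of CXCR4, CXCR6 and CCL20 and 3 times before that of CXCL14. The second IL32 start had 2 GCGTG matches and 1 GTGGGCG match, and the third CXCR4 start had 2 and 1 of the same motifs. A match is a string of letters in this window and was not measured as a bound site.

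CXCL12 was the most abundant of the 10 transcripts in the control cells. Per length, as FPKM (fragments scaled by transcript length and library size), its level in LX-2Vector was 28.3 ± 4.75 (SD, n = 3), which was 2.59-fold over that of the next gene, CCL5, at 10.9 ± 1.57 FPKM. IL32 followed at 7.62 ± 0.976 FPKM, CCL2 at 2.67 ± 0.344 FPKM and CXCL16 at 1.81 ± 0.140 FPKM. Each of these 5 genes was separated from the next, since the ranges over the 3 LX-2Vector libraries did not overlap. The 3 receptors lay together at a lower level, with CXCR6 at 0.554 ± 0.0733 FPKM, ACKR3 at 0.502 ± 0.0254 FPKM and CXCR4 at 0.423 ± 0.275 FPKM, and their ranges overlapped between neighbours. CXCL14 at 0.265 ± 0.0836 FPKM overlapped with CXCR4, and CCL20 was lowest at 0.105 ± 0.0784 FPKM. The control cells thus held more RNA of CXCL12 and of CXCL16 than of the receptors of either.

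**Figure D1:**
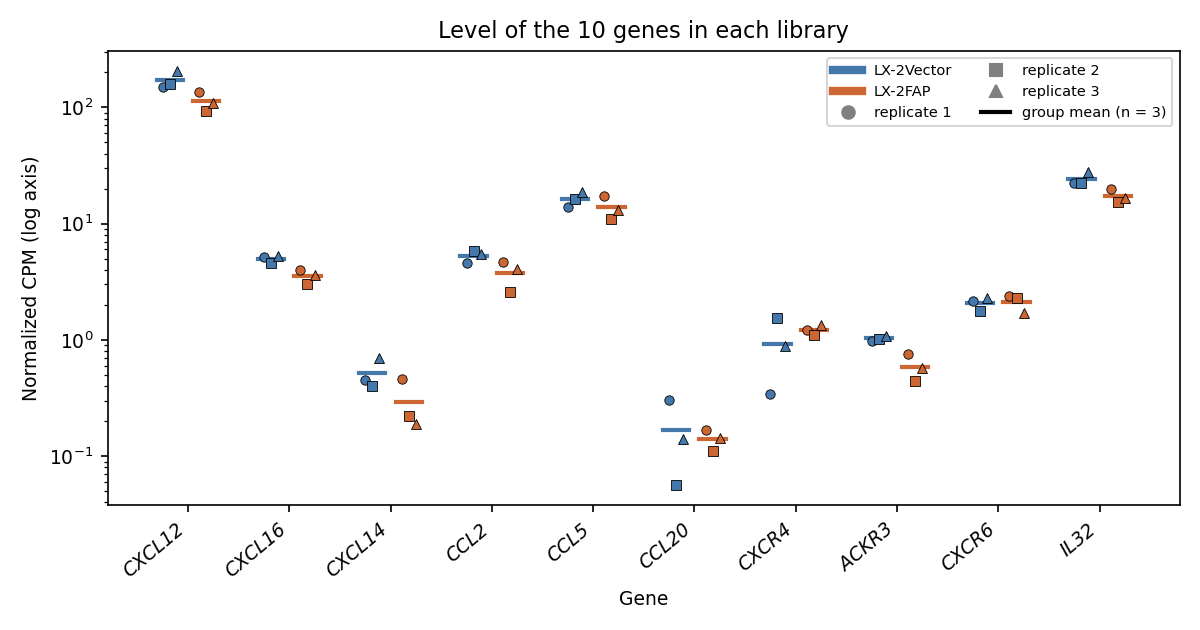
Level of the 10 genes in each of the 6 libraries, as CPM after TMM normalization on a log axis, with 1 point per library and a bar at the mean of each group (n = 3). CXCL12 spans 92.4 to 203.2 CPM, and within each gene the LX-2FAP points of CXCL12, CXCL16, IL32 and ACKR3 lie below all LX-2Vector points.

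Of the 10 genes, 8 passed the filter on low counts and entered the fit over 18275 genes. The genes called at an adjusted p under 0.05 were 3, all lower in LX-2FAP, namely CXCL12, CXCL16 and IL32. Of all tested genes 5.29% were called, with 2.73% called lower and 2.57% called higher. Because these 3 genes were chosen for this fall, nothing is read from that count. None of the 5 other tested genes was called, with the smallest adjusted p at 0.104 for ACKR3, although 2 of them (ACKR3 and CCL2) were among the 5 members with an unadjusted p under 0.05, a level that 22.2% of all tested genes met. The groups did not overlap, with LX-2FAP lower, for 4 members, of which 3 were those chosen for their fall and the other was ACKR3, beside 13.4% of all tested genes, and nothing is read from that count either. Log2 fold changes (LX-2FAP over LX-2Vector) were below 0 for 6 members and above 0 for 2. Their median was -0.46 beside -0.0125 over all tested genes, and the 3 genes chosen for their fall are part of it.

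CXCL12 (ENSG00000107562, GRCh38 chromosome 10, 44370165 to 44386493, minus strand) is the stromal chemokine that retains CXCR4-bearing cells in their niches. Its counts were 3981, 2785 and 4322 in LX-2Vector and 3244, 1662 and 2291 in LX-2FAP. As CPM these were 150.7, 158.7 and 203.2 in LX-2Vector and 135.3, 92.4 and 109.4 in LX-2FAP. LX-2FAP replicate 1 was the library closest to the controls, LX-2Vector replicate 3 was the highest of all, and the groups did not overlap. The mean fell from 170.9 ± 28.3 to 112.4 ± 21.6 CPM (SD, n = 3 in each group). The log2 fold change was -0.60 (SE 0.11, 95% interval -0.84 to -0.36), which is 34.0% lower.

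Among 32 chemokine ligands, CXCL12 also took a smaller share of the ligand RNA in LX-2FAP. The summed level of these ligands (the CXCR2 ligands were not among them) was 45.0, 47.6 and 58.2 FPKM in LX-2Vector and 42.5, 30.7 and 35.1 FPKM in LX-2FAP. CXCL12 made up 55.3%, 55.5% and 58.0% of it in the controls and 51.9%, 48.8% and 50.6% with FAPα. CCL5 made up 21.8% ± 1.13 in LX-2Vector and 24.9% ± 1.91 in LX-2FAP. CXCL12 thus remained the leading ligand in every library, with a share that did not overlap between the groups. These shares rest on the same counts that chose CXCL12 and are a description.

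CXCL16 (ENSG00000161921, chromosome 17, 4733526 to 4739922, minus strand) encodes the transmembrane chemokine that also acts as a scavenger receptor for oxidized lipoprotein. Its counts were 136, 80 and 113 in LX-2Vector and 95, 54 and 75 in LX-2FAP. The CPM values were 5.15, 4.56 and 5.31 in LX-2Vector and 3.96, 3.00 and 3.58 in LX-2FAP. All LX-2FAP libraries were below all LX-2Vector libraries, with replicate 2 the lowest in both groups. The mean fell from 5.01 ± 0.396 to 3.52 ± 0.484 CPM, and the log2 fold change was -0.50 (SE 0.14, 95% interval -0.79 to -0.21), or 29.4% lower. Of its exon bases, 3.04% lie under MED11 on the other strand, and the use of strand in counting was not given in the sources used here.

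IL32 (ENSG00000008517, chromosome 16, 3065297 to 3082192, plus strand), whose start region with the NF-kB matches is printed above, was of middle abundance. Its counts were 593, 395 and 591 in LX-2Vector and 474, 277 and 350 in LX-2FAP. These gave 22.4, 22.5 and 27.8 CPM in LX-2Vector and 19.8, 15.4 and 16.7 CPM in LX-2FAP. The groups did not overlap, and as for CXCL12 the nearest LX-2FAP library to the controls was replicate 1. The mean fell from 24.2 ± 3.07 to 17.3 ± 2.25 CPM, and the fitted log2 fold change was -0.48 (SE 0.10, 95% interval -0.69 to -0.27), or 28.2% lower. An annotated small nuclear RNA pseudogene, RNU1-125P, shares 4.02% of the exon bases of IL32 on the same strand.

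The CC chemokines did not pass the test. CCL2 (ENSG00000108691, chromosome 17, 34255218 to 34257203, plus strand), the monocyte attractant, had 120, 102 and 116 counts in LX-2Vector and 111, 46 and 86 counts in LX-2FAP. At 4.54, 5.81 and 5.45 CPM against 4.63, 2.56 and 4.11 CPM, the groups overlapped, because LX-2FAP replicate 1 was above LX-2Vector replicate 1. The means were 5.27 ± 0.655 and 3.76 ± 1.08 CPM, and the log2 fold change was -0.44 (SE 0.17, 95% interval -0.81 to -0.07, edgeR quasi-likelihood adjusted p = 0.144). CCL2 was called without LX-2FAP replicate 1 (log2 fold change -0.62, edgeR adjusted p = 0.0420, with 0.0420 to 0.438 over the alternatives), and across the fits that left out 1 library its log2 fold change ran from -0.62 to -0.25. The interval with all libraries reaches a larger fall than that measured for CXCL12, so the missed threshold does not show that CCL2 was level.

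CCL5 (ENSG00000271503, chromosome 17, 35871491 to 35880793, minus strand), a T cell and monocyte attractant, was the most abundant CC chemokine. It had 370, 285 and 395 counts in LX-2Vector and 416, 195 and 273 counts in LX-2FAP. The CPM values were 14.0, 16.2 and 18.6 in LX-2Vector and 17.4, 10.8 and 13.0 in LX-2FAP. LX-2FAP replicate 1 lay within the control range and the other LX-2FAP libraries below it. The means were 16.3 ± 2.28 and 13.7 ± 3.31 CPM, with a log2 fold change of -0.22 (SE 0.14, 95% interval -0.51 to 0.07, edgeR adjusted p = 0.372). Without LX-2FAP replicate 1 it was called, with a value of -0.43 (edgeR adjusted p = 0.0305, with 0.0305 to 0.795 over the alternatives), whereas without LX-2FAP replicate 2 the value was -0.08. Of its words of 75 bases, 7.94% are shared with AC027290.2, so a part of its reads cannot be assigned with certainty.

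CCL20 and CXCL14 were close to the limit of detection and were not tested. CCL20 (ENSG00000115009, chromosome 2, 227805739 to 227817564, plus strand), the ligand of CCR6, had 8, 1 and 3 counts in LX-2Vector and 4, 2 and 3 counts in LX-2FAP. A count of 3, the limit that a count of 0 allows, corresponded to 0.114 to 0.171 CPM in these libraries. CXCL14 (ENSG00000145824, chromosome 5, 135570679 to 135579279, minus strand), a chemokine of epithelia and stroma, had 12, 7 and 15 counts in LX-2Vector and 11, 4 and 4 counts in LX-2FAP. These sum to 34 against 19 counts, with groups that overlapped, and the counts of both genes were too few to show a difference. Of the CXCL14 exon bases, 4.81% lie under AC034206.1 and 3.95% under SLC25A48, both on the other strand.

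The 3 receptors of CXCL12 and CXCL16 were low, at 8 to 57 counts per library. ACKR3 (ENSG00000144476, chromosome 2, 236567787 to 236582358, plus strand), which removes CXCL12 from the surroundings, had 26, 18 and 23 counts in LX-2Vector and 18, 8 and 12 counts in LX-2FAP. As CPM these were 0.984, 1.03 and 1.08 against 0.751, 0.445 and 0.573. ACKR3 was the only receptor of the 3 whose groups did not overlap. The means were 1.03 ± 0.0488 and 0.590 ± 0.154 CPM, and the log2 fold change of -0.76 was the most negative of the 8 members tested (SE 0.27, 95% interval -1.33 to -0.19, edgeR adjusted p = 0.104). It was called in 0 of the 6 fits that left out 1 library, in which it ran from -0.99 to -0.62.

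CXCR4 (ENSG00000121966, chromosome 2, 136114349 to 136118165, minus strand), the signalling receptor of CXCL12, had 9, 27 and 19 counts in LX-2Vector and 29, 20 and 28 counts in LX-2FAP. LX-2Vector replicate 1 was lowest and LX-2Vector replicate 2 highest of all libraries at 0.341 and 1.54 CPM, so the controls spanned the LX-2FAP range of 1.11 to 1.34 CPM. The log2 fold change was 0.52 (SE 0.36, 95% interval -0.24 to 1.27, edgeR adjusted p = 0.429). Leaving out LX-2Vector replicate 1 gave 0.041 and leaving out LX-2Vector replicate 2 gave 1.05, and the gene was not called in either fit. The interval holds both a fall and a rise, so the direction is not settled at these counts.

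CXCR6 (ENSG00000172215, chromosome 3, 45940933 to 45948353, plus strand), the receptor of CXCL16, had 57, 31 and 49 counts in LX-2Vector and 57, 41 and 36 counts in LX-2FAP. At 2.16, 1.77 and 2.30 CPM against 2.38, 2.28 and 1.72 CPM the groups overlapped. The log2 fold change was 0.02 (SE 0.19, 95% interval -0.37 to 0.42, edgeR adjusted p = 0.964). Both ends of that interval are smaller in size than the log2 fold change measured for CCL2. CXCR6 and CXCR4 are best known from lymphocytes, and PTPRC, the common leukocyte antigen, had 342 counts in LX-2Vector and 334 counts in LX-2FAP. The T cell marker CD3E was sparse, with 15 and 12 counts.

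**Figure D2:**
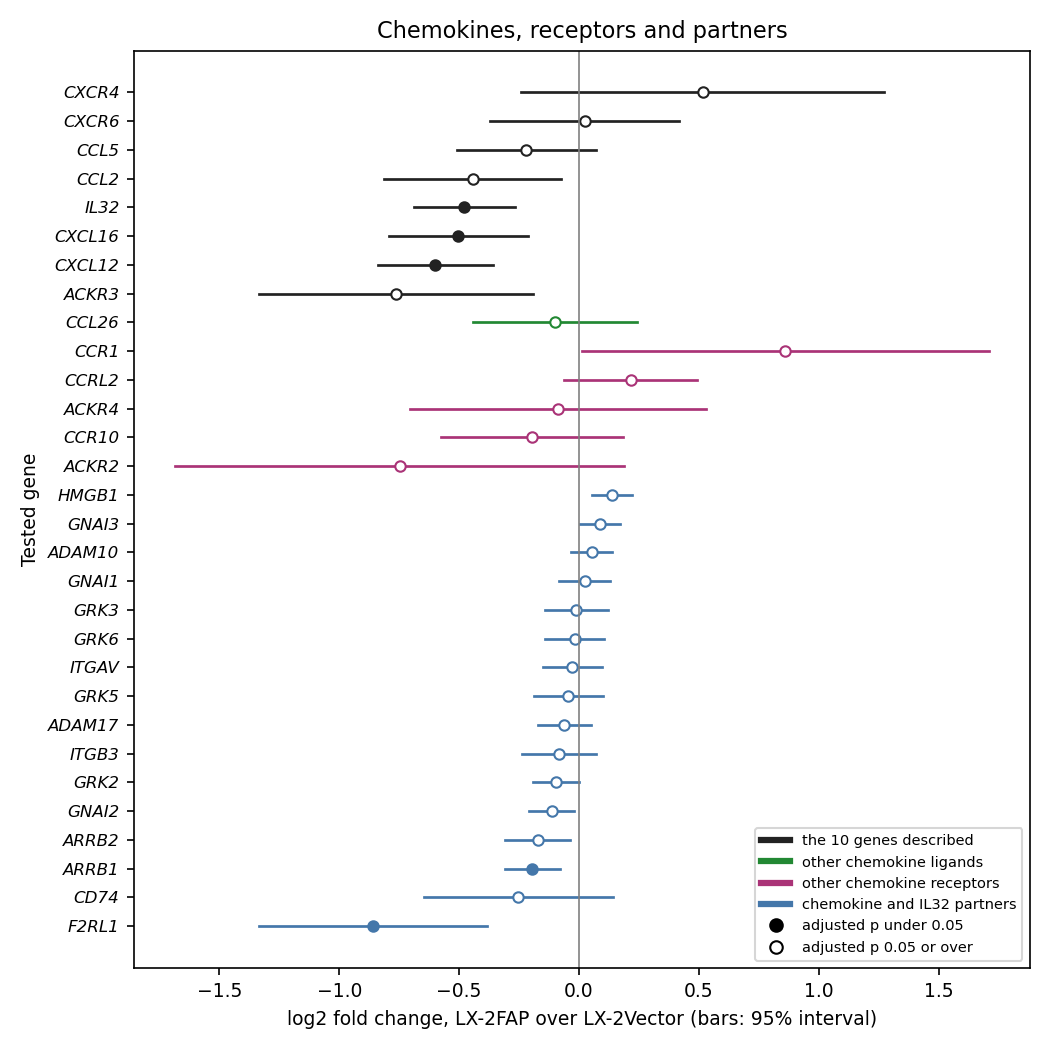
Log2 fold changes (LX-2FAP over LX-2Vector, edgeR) of the 30 tested genes of the 4 lists on the x axis, with bars for the 95% interval, closed points for an adjusted p under 0.05 and open points for the others. The closed points are CXCL12, CXCL16 and IL32, which were chosen for their fall, and ARRB1 and F2RL1 among the partners, all at negative values.

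The LX-2FAP libraries were in the same order for most of the members. Among the 8 tested, 6 (CXCL12, CXCL16, IL32, ACKR3, CCL2 and CCL5) were highest in LX-2FAP replicate 1, lower in replicate 3 and lowest in replicate 2. This order, which 21.4% of all tested genes had, was picked after the values were seen. CXCL12, CXCL16 and IL32 were chosen for their fall in the same counts, so nothing is read from this number of members. Relative to the LX-2Vector mean, CXCL12 was at 0.792, 0.541 and 0.640 in LX-2FAP replicates 1 to 3, CXCL16 at 0.792, 0.600 and 0.715, IL32 at 0.816, 0.635 and 0.689, and ACKR3 at 0.729, 0.432 and 0.556. CCL2 and CCL5 spread more widely, from 0.879 and 1.07 in replicate 1 to 0.485 and 0.666 in replicate 2. CXCR6 and CXCR4 were outside this pattern. CXCR6 had its lowest LX-2FAP value, 0.828, in replicate 3. CXCR4 was highest in replicate 3, with 1.21, 1.11 and 1.34 CPM in LX-2FAP replicates 1 to 3, all above its LX-2Vector mean of 0.924 CPM. FAP itself was at 620.1, 842.8 and 706.7 CPM in LX-2FAP replicates 1 to 3, and its part in the order of the other genes was not tested.

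**Figure D3:**
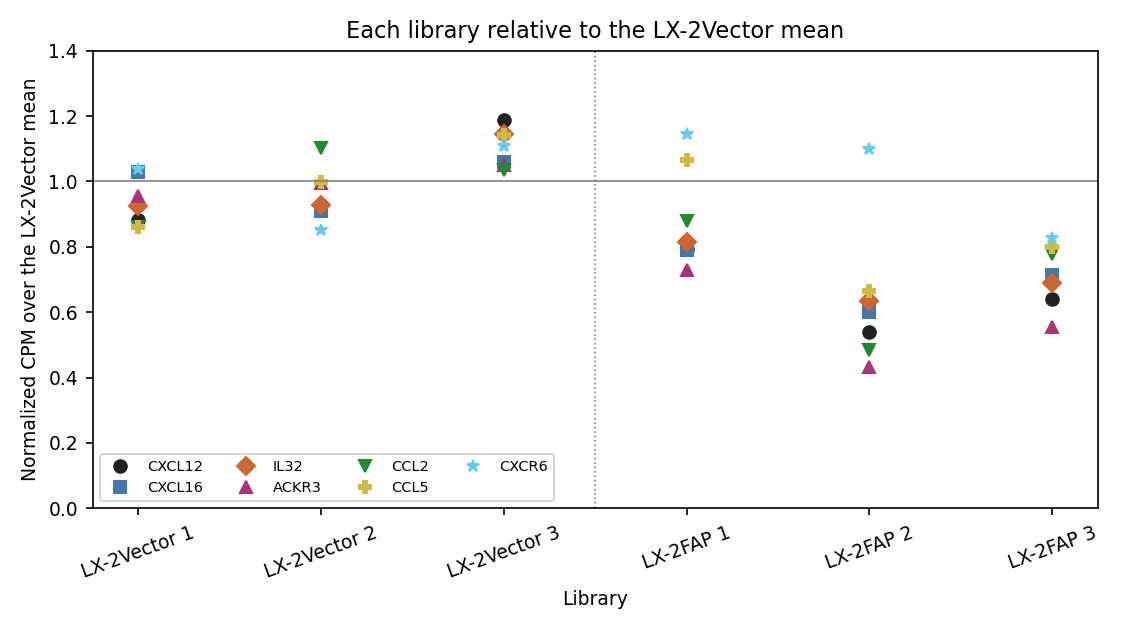
CPM of 7 tested members in each library divided by the mean of the LX-2Vector libraries, on a linear axis from 0, with 1 symbol per gene. CXCR4 is left out because its LX-2Vector mean, 0.924 CPM, was under 1 CPM, and its LX-2FAP values all lay above that mean. In LX-2FAP replicate 2 every gene but CXCR6 lies between 0.432 and 0.666, and in LX-2FAP replicate 1 the same genes lie between 0.729 and 1.07.

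The values depended on single libraries. With 1 library left out, the log2 fold change of CXCL12 ran from -0.76 to -0.45, that of IL32 from -0.59 to -0.36 and that of CXCL16 from -0.60 to -0.41. Since these genes were chosen for their fall in the same counts, their negative sign is no sign of stability. CXCL12 was no longer past the threshold without LX-2FAP replicate 3, IL32 without that library, LX-2FAP replicate 2 or LX-2Vector replicate 3, and CXCL16 without any 1 library other than LX-2FAP replicate 1. The number of members called was 5 without LX-2FAP replicate 1, where 10.4% of all genes were called, 2 without LX-2Vector replicate 1 (2.09% of all genes) or 2 (3.54%), 1 without LX-2Vector replicate 3 (2.12%) or LX-2FAP replicate 2 (0.687%), and 0 when LX-2FAP replicate 3 was left out, where 0.138% of all genes were called and 5 members had an unadjusted p under 0.05. With all libraries, 3 members were also called with DESeq2 size factors (5.76% of all genes), with library size unscaled (5.73%), with no filter (3.9%), when 10 counts were asked of every library (6.32%) and with the replicate number as a block (5.34%). The DESeq2 Wald test called 1 member, IL32, and 5.59% of all genes. A limma-trend test of log2 FPKM called 0 members and 0.0109% of all genes, with 5 members at an unadjusted p under 0.05. The share of all genes at that unadjusted level was not taken for the alternatives, so nothing is read from these numbers of members.

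**Figure D4:**
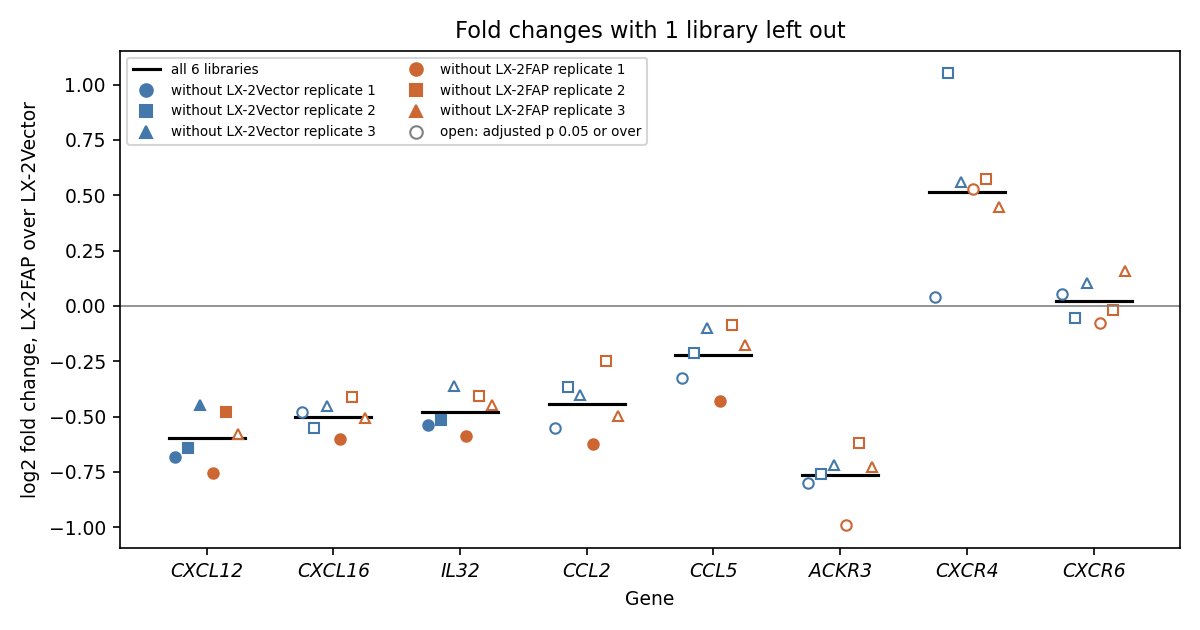
Log2 fold change of the 8 tested members with all 6 libraries (black line) and with 1 library left out (symbols), closed where the edgeR adjusted p was under 0.05. CCL2, CCL5 and ACKR3 stay below 0, as do the 3 genes chosen for their fall, and CXCR4 moves from 0.041 to 1.05 with the LX-2Vector library left out.

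Few other chemokine ligands were expressed. Of 26 further ligands outside the CXCR2 group, 7 had no count, 18 had counts but too few to be tested (at most 44 over all libraries), and 1, CCL26, was tested. CCL26, a CCR3 ligand that attracts eosinophils, was at 3.38 ± 0.422 CPM in the controls and 3.22 ± 0.571 CPM with FAPα (log2 fold change -0.10, 95% interval -0.44 to 0.24, edgeR adjusted p = 0.775). The next by mean FPKM over all libraries were CCL7 at 0.395, CXCL11 at 0.160 and CXCL10 at 0.158, against 4.68 for CCL26. CCL7, a relative of CCL2 that also binds CCR2, had 28 counts in LX-2Vector and 16 in LX-2FAP, and its groups did not overlap as CPM. CXCL17, singled out after its values were seen, had 7, 5 and 5 counts against 0, 1 and 2. In the edgeR fit with no filter its unadjusted p was 0.00296 and its adjusted p 0.0677. These p-values come from the counts that singled it out, so they support nothing. The interferon-induced CXCR3 ligands had 18 and 21 counts (CXCL11) and 14 and 10 counts (CXCL10). CCL26 was not called by limma-trend either, and its unadjusted edgeR p was 0.544.

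Among 18 other chemokine receptors all had a count, 13 were too low to be tested and 5 were tested, with none called by edgeR or limma-trend and 1, CCR1, at an unadjusted edgeR p under 0.05, beside 5.29% and 22.2% of all tested genes. DESeq2 gave an adjusted p for CCRL2 alone and did not call it. CCRL2, an atypical receptor that presents chemerin, was the highest at a mean of 1.42 FPKM over all libraries, followed by CCR10 at 0.775, ACKR4 at 0.241 and CCR1 at 0.218. CCRL2 was at 3.93 ± 0.183 CPM in the controls and 4.58 ± 0.428 CPM with FAPα (log2 fold change 0.21, 95% interval -0.06 to 0.49, edgeR adjusted p = 0.358). CCR1, a receptor of CCL5, had 6, 10 and 10 counts in LX-2Vector and 21, 17 and 8 counts in LX-2FAP, and its groups overlapped (log2 fold change 0.86, 95% interval 0.01 to 1.71, edgeR adjusted p = 0.219). Its value was 0.50 without LX-2Vector replicate 1, and 1.17 when LX-2FAP replicate 3 was left out. CCR10 and the scavenger ACKR4 had log2 fold changes of -0.20 (95% interval -0.58 to 0.18) and -0.09 (95% interval -0.70 to 0.53). The median over the 5 tested receptors was -0.09.

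A further list held 19 genes whose products process, bind or pass on signals of CXCL12, CXCL16 and IL32. Of these 16 were tested and 2 were called, both lower, beside 5.29% of all tested genes, while 12 log2 fold changes were below 0 and 4 above 0, with a median of -0.053. F2RL1, the protease-activated receptor known as PAR2, which has been described as a partner of IL32, fell from 2.15 ± 0.312 to 1.17 ± 0.346 CPM. Its counts were 55, 33 and 53 in LX-2Vector and 37, 20 and 18 in LX-2FAP, with no overlap of the groups as CPM, and the log2 fold change was -0.86 (SE 0.22, edgeR adjusted p = 0.0381). ARRB1, the arrestin that uncouples chemokine receptors and sends them into the cell, fell from 54.0 ± 1.89 to 47.1 ± 2.22 CPM, where the log2 fold change was -0.19 (SE 0.05) at an edgeR adjusted p of 0.0476. Both calls were lost in the fits without any 1 of 5 libraries, every library but LX-2FAP replicate 1, and the log2 fold changes ran from -1.14 to -0.67 for F2RL1 and from -0.23 to -0.17 for ARRB1.

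The remaining 14 tested partners were not called. HMGB1, a nuclear protein that once released forms a complex with CXCL12, was the most abundant at 63.0 FPKM, and it was at 462.5 ± 13.5 CPM in the controls and 509.1 ± 15.3 CPM with FAPα. Its groups did not overlap, which held for 26.4% of all tested genes in either direction. The log2 fold change was 0.14 (SE 0.04, edgeR adjusted p = 0.0517), a call that DESeq2 made (adjusted p = 0.0225, with 0.0198 to 0.268 over the alternatives). Of the HMGB1 words of 75 bases, 7.55% are shared with HMGB1P5, so a part of its reads cannot be assigned with certainty. The inhibitory G protein subunits GNAI2 and GNAI3, through which CXCR4 and CXCR6 signal, were at 41.9 and 25.1 FPKM, with log2 fold changes of -0.11 (95% interval -0.21 to -0.02, edgeR adjusted p = 0.144) and 0.09 (95% interval 0.0024 to 0.17, edgeR adjusted p = 0.211). ADAM10, the main sheddase of CXCL16, was at 13.8 FPKM and had a log2 fold change of 0.05 (95% interval -0.03 to 0.14, edgeR adjusted p = 0.475). DPP4, a relative of FAPα that inactivates CXCL12 by clipping its end, had 18 and 13 counts and was not tested. PRTN3 had 1 count and MIF 1 count over all libraries, where 61.9% of the annotated exon bases of MIF lie under MIF-AS1 and 32.2% under another gene on the same strand, so that its count is uncertain.

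Profiles most like those of the 3 chosen genes were looked up among 11553 tested genes that had 100 or more counts on average. The measure was the root mean square difference of log2 CPM over the 6 libraries after each gene was centred on its own mean, and it is a description with no test. For CXCL12 the nearest were PIK3IP1, an inhibitor of PI3-kinase, at 0.0405, PGGHG at 0.0572 and BCAM, a laminin receptor, at 0.0611. Nearest to CXCL16 were TM7SF2, a sterol reductase, at 0.0231, RIMKLA at 0.0243 and PIEZO2, a stretch-gated channel, at 0.0362. For IL32 they were PLXNB3 at 0.0250, the adaptor SH3BP2 at 0.0357 and SOD2, the mitochondrial superoxide dismutase, at 0.0412. PLXNB3 shares 20.4% of its exon bases with SRPK3 on the same strand, so its counts are uncertain. The log2 fold changes of these 9 genes were between -0.64 (BCAM) and -0.45 (PLXNB3). The search over the same 6 libraries largely fixed these values, so nothing is read from them.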

How the data were processed

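RNA was sequenced in 6 libraries, 3 of LX-2Vector and 3 of LX-2FAP, grouped and numbered by their titles. Per the submitters' processing notes, the authors used HISAT2 2.0.5 and featureCounts 1.5.0-p3, and these notes also name DESeq2 1.16.1, edgeR and the genome build hg18. The authors deposited raw counts per gene, not normalized, and FPKM values that they computed from gene length and counts. Coordinates given here are those of GENCODE 29 (GRCh38), which held 58337 of the 60605 Ensembl identifiers. Libraries were made after depletion of ribosomal RNA per the labels, and a poly(A) step is named as well in the methods. KEGG and GO columns of the table were not used here.

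Differences in counts were tested by edgeR 4.0.16 (R 4.3.3, quasi-likelihood test) after TMM normalization and the default filter (minimum count of 10, minimum total of 15), with no covariate, and 2-sided p-values were adjusted over all 18275 tested genes by the Benjamini-Hochberg method. Calls are adjusted p-values under 0.05. CPM used the TMM-scaled library size, and levels of different genes were compared as FPKM, with their order by CPM as an alternative. Within groups, the 6 pairs of libraries differed beyond sampling noise (chi-square over its degrees of freedom of 2.06 to 5.02). Counts carry no molecular identifiers, so limits from counting cover counting error only.

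The members, the other lists and the tests were chosen with earlier results of these data known. Named genes are the 10 members, FAP, markers of cell types, the called genes and the 4 with the highest mean FPKM in each other list, the 3 genes with the profile nearest to each of CXCL12, CXCL16 and IL32, and genes that share exons. DPP4, PRTN3, MIF, CXCL17, VWF and other markers singled out were named after their values were seen. Alternatives were the Wald test of DESeq2 1.42.0, its size factors, library size alone, no filter, a minimum of 10 counts in each library, limma-trend (limma 3.58.1) on log2 FPKM with a pseudocount of 1 or 0.1, a block for the replicate number, fits that left out 1 library, and CPM in place of FPKM for the order of levels.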

Additional observations from a re-analysis of the deposited data

How the results depend on the processing

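Over 14 alternatives the log2 fold change of CXCL12 ran from -0.76 to -0.45, that of CXCL16 from -0.60 to -0.32 and that of IL32 from -0.59 to -0.36, with signs that the choice of these genes largely fixed. The number of members called was 3 under the other scalings and filters. It was 1 with the DESeq2 Wald test (IL32, with 4 at an unadjusted p under 0.05) and 0 with limma-trend on FPKM with either pseudocount (5 at an unadjusted p under 0.05), a test that called 0.0109% of all genes. With 1 library left out it ran from 0 to 5. The number of partners called was 1 with the DESeq2 Wald test (HMGB1, where 5.59% of all genes were called), 0 with limma-trend (6 at an unadjusted p under 0.05 with either pseudocount) and from 0 to 3 with 1 library left out (at least 4 at an unadjusted p under 0.05 in each, where 0.138% to 10.4% of all genes were called). The share of all genes at an unadjusted p under 0.05 was not taken for the alternatives. Nothing is read from the numbers of members and partners at that level. ARRB1 was not called by DESeq2 (adjusted p = 0.0580) or limma-trend, and over its alternatives the adjusted p ran from 0.0187 to 0.244. DESeq2 gave no adjusted p for the lowest genes, among them CXCR4, ACKR3, CXCR6 and F2RL1. Among the genes of the 4 lists whose fold changes are given, the sign changed for 3. Cell type markers and the genes with similar profiles were not looked at under the alternatives. CXCR6 was at -0.0048 with library size alone and from -0.078 to 0.16 when 1 library was left out, being below 0 when LX-2Vector replicate 2 or LX-2FAP replicate 1 or 2 was the one left out. CCL26 ran from -0.23 to 0.019 and ACKR4 from -0.22 to 0.038, above 0 when LX-2FAP replicate 1 and LX-2Vector replicate 2, respectively, were left out. Among the other partners, GNAI1, GRK3, GRK6 and ITGAV, all near 0, also changed sign under at least 1 alternative. The cause was not tested. Ordered by CPM in place of FPKM, 2 members (CCL5 and IL32) changed rank, since CPM is not divided by length. Same-numbered libraries did not deviate together (r from -0.0389 to 0.0436 over 3 pairs), so no pairing by number was seen. Whether these libraries were handled together was not tested. With the replicate block 3 members and 2 partners were called, with F2RL1 lost (adjusted p = 0.0538, 0.00566 to 0.216 over its alternatives) and HMGB1 gained (adjusted p = 0.0466, 0.0198 to 0.268). Depth limits the receptors, CCL20 and CXCL14 most.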
